A study of Mus musculus with 8 samples.

Results

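Cytosolic ribosomal protein genes encode the protein subunits of the ribosome. They were followed here on 8 Illumina bead arrays of mouse pre-iPSCs, cells that had stalled partway through reprogramming. The genes were taken by symbol from the array annotation: symbols that start with Rpl or Rps and a digit, with Rplp0, Rplp1, Rplp2 and Rpsa. The Rps6k kinases and symbols containing -ps were left out. By their symbols Rps4l, annotated as a transcribed pseudogene, and Rps19bp1, a binding protein, stayed in. The rule gave 65 of 19057 annotated genes, read by 96 probes, and each gene was represented by its brightest probe over the 8 arrays. Fau, Rps27a, Rpl5, Rpl7, Rpl10, Rpl11 and Rps27 are not analysed here. The symbol rule does not use the measured changes.

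The cells were female, of a 129/MF1 background and derived from neural stem cells, with a reporter for Oct4 activity. They grew in serum with LIF and were sampled at day 0 of reprogramming. All groups, the controls included, carried PiggyBac vectors with the constitutive CAG promoter and had gone through hygromycin and/or blasticidin S selection, so they differ in the transgene: Nanog with an empty vector (Nanog), Nanog with Sin3a (Nanog+Sin3a), Sin3a with an empty vector (Sin3a) and empty vectors alone (EV), with 2 arrays each. Nanog is a homeodomain factor of the pluripotency network and Sin3a the scaffold of a histone deacetylase co-repressor complex, and the series title asks how they cooperate. Each group is a stably selected line, and all but EV overexpress Nanog, Sin3a or both. Nothing in the labels says that the arrays of a group came from separate cultures, so p-values measure the spread between these arrays.

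A ribosome has a small subunit, which reads the messenger RNA, and a large subunit, which forms the peptide bond, and most of their proteins are needed in equal numbers. Ribosomal protein mRNAs usually begin with a run of pyrimidines, the TOP element, through which mTOR signalling sets their translation, and their genes often carry compact promoters rich in G and C. Their RNA is abundant in fast-dividing stem cells. An array measures RNA, not ribosomes or translation.

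The labels were checked first. The Nanog probe read 364.8 and 485.8 intensity units on the Nanog arrays and 289.5 and 285.2 on the Nanog+Sin3a arrays, against -7.3 and -12.2 with Sin3a and -3.6 and -5.4 with EV. The Sin3a probe read 1484.7 and 1483.3 with Nanog+Sin3a and 1182.1 and 1141.6 with Sin3a, against 344.4 and 472.5 with Nanog and 329.3 and 261.8 with EV. Of 12 markers of pluripotent cells, 3 lay above an intensity of 16 on all 8 arrays (Pou5f1, which encodes Oct4, Klf4 and Sall4), and Esrrb, Dppa3 and Utf1 on none. Of 7 neural stem cell markers, 1 (Egfr) lay above 16 on all 8 arrays. The summed intensity of the 6 fibroblast and feeder markers was 509.3 to 539.0 with Nanog and 434.4 to 481.4 with Nanog+Sin3a, against 185.9 to 239.2 with Sin3a and 215.6 to 238.6 with EV, with Col1a2 and Col3a1 never above 16. Most of this sum was 1 gene, Thy1, at 508.3 and 443.8 with Nanog and 341.8 and 391.7 with Nanog+Sin3a, against 230.1 and 11.7 with Sin3a and 218.2 and 215.6 with EV. On the second Sin3a array most of it was Postn (174.2), which was below 0 on the other 7. That of the 7 neural stem cell markers was 471.3 to 529.8 and 432.4 to 476.2, against 808.3 to 860.3 and 724.9 to 788.7, with Pax6 and Fabp7 never above 16. Most of that sum was Egfr, at 437.4 and 373.1 with Nanog and 398.5 and 371.7 with Nanog+Sin3a, against 695.7 and 610.6 with Sin3a and 664.7 and 616.5 with EV, and the second Sin3a array added 165.4 of Sox1. Thy1 and Egfr thus move with the Nanog transgene, as several ribosomal protein genes do, while the other markers of these lists read at most 105.6 (Nes), apart from Postn and Sox1 on the second Sin3a array, and their part in those results was not tested.

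The second Sin3a array stood apart at low and middle intensity. Among 7812 probes with a mean log2 intensity of 5 to 8, 80.1% differed by over 1 (log2) between the Sin3a arrays, against 0.205% between the EV arrays. Among 2670 probes above 9, the shares were 0% and 0.0375%. Tests were therefore made on the 2300 bright features, meaning those with a mean log2 intensity above 9 (512 intensity units) over the 8 arrays, and the whole table was fitted as an alternative. Of the 65 genes, 50 were bright: 25 of the large subunit, 19 of the small subunit, the 3 stalk proteins and 3 paralogs. The median within-group SD of these 50 was 0.085 on the log2 scale, against 0.112 over all bright features.

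The promoters of all 11 genes that passed in the Nanog main effect and have a window are shown, so that those with and without the features common in the family can be compared. RefSeq promoter windows (GRCm38.p6, from 250 bases before to 50 after the annotated start, the first window where a gene has several) were matched for 54 of the 65 genes and compared with 27025 genes. CCGGAAG, the core bound by Ets factors such as GABP, was found on either strand in 40.7% of the ribosomal protein windows, against 9.12% of all windows. GGGCGG, the core bound by Sp1, was found in 63% against 35.9%, and TATAAA in 9.26% against 14.2%. AAGATGG, the core bound by YY1, was found in 13% against 6.48%. A run of at least 10 pyrimidines within 50 bases of the start was found in 63% of the ribosomal protein windows, against 18% of all windows. The 100 bases before the start are given 5′ to 3′ on the gene's strand, with letters of these cores (either strand) in capitals. A core in the rest of the window is counted but not printed. The first 5 belong to genes that rose with Nanog, and the last 6 to genes that fell.
Rps25, chr9:44407614-44407713, plus strand: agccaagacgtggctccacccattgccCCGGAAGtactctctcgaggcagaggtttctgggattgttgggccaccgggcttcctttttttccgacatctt
Rpl37, chr15:5116513-5116612, plus strand: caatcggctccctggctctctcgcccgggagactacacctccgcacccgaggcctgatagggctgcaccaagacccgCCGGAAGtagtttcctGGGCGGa
Rpl38, chr11:114668480-114668579, plus strand: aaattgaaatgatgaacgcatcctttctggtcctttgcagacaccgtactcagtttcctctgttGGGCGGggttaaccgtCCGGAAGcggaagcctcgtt
Rpl41, chr10:128549169-128549268, minus strand: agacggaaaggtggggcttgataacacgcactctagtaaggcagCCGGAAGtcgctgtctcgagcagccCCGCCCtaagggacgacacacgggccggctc
Rpl36al, chr12:69184068-69184167, minus strand: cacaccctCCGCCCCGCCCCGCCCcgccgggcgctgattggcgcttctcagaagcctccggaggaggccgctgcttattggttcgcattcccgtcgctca
Rps16, chr7:28350589-28350688, plus strand: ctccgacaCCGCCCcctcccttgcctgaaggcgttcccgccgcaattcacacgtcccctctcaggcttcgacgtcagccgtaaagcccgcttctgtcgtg
Rpl39, chrX:37085223-37085322, minus strand: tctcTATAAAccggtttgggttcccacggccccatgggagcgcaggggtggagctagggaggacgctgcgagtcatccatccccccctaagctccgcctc
Rps3, chr7:99483710-99483809, minus strand: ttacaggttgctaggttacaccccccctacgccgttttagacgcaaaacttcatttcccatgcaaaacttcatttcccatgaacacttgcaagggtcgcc
Rplp0, chr5:115559367-115559466, plus strand: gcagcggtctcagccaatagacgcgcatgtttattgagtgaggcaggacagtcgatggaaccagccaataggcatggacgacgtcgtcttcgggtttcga
Rpl7a, chr2:26910707-26910806, plus strand: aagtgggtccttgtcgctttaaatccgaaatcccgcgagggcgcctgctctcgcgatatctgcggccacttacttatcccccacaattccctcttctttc
Rps3a1, chr3:86142669-86142768, minus strand: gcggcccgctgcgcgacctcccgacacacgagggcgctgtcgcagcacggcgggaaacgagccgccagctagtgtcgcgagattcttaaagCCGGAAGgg

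As a group the ribosomal protein genes stayed close to level across the 4 transgene conditions. Their summed intensity was 371758 and 369150 on the Nanog arrays, 376486 and 373616 on the Nanog+Sin3a arrays, 368644 and 371966 on the Sin3a arrays, and 373923 and 378727 on the EV arrays. In bulk samples like these, fewer cells of a type and less RNA per cell cannot be told apart. The sums were 7.89% to 8.13% of the intensity of all bright features on an array. The median gene spanned 0.16 on the log2 scale between its highest and lowest group mean, a 1.12-fold range. In all, 15 of the 50 genes passed in at least 1 of 8 comparisons and 35 in none. The matching share of all bright features is not reported here, and 26.5% of them passed in the Nanog main effect alone. The 8 comparisons share arrays and are not independent of each other. The deposited values had been made equal in distribution between arrays, so a change common to all RNAs could not be seen.

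**Figure D1:**
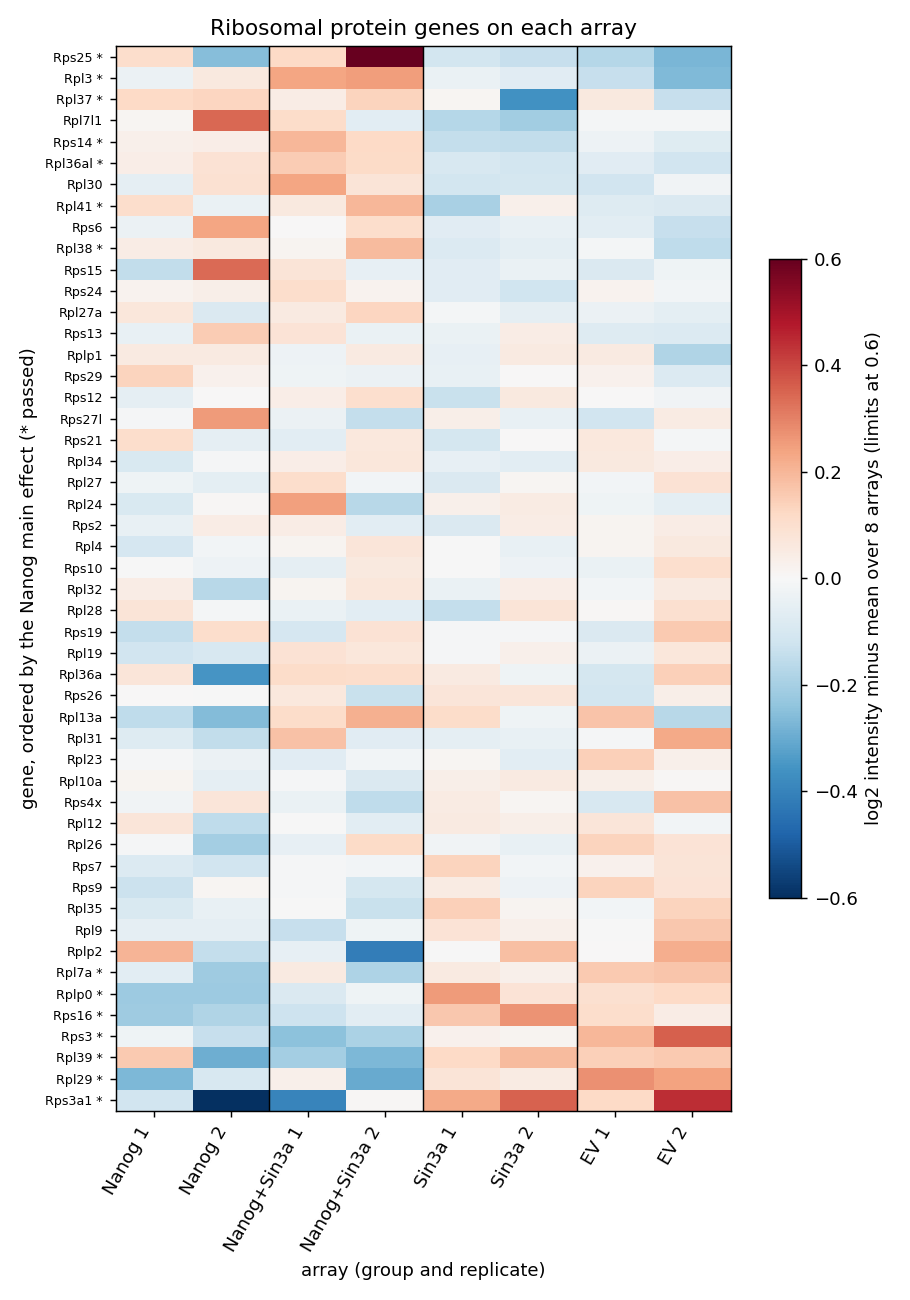
Log2 intensity of 50 ribosomal protein genes (rows, ordered by the Nanog main effect) on 8 arrays (columns, replicates 1 and 2 of each group), less each gene's mean over the arrays. A few rows near the top (Rpl3) and bottom (Rps3, Rps3a1) differ between the arrays with and without the Nanog transgene. The top row, Rps25, is highest on the second Nanog+Sin3a array, while its second Nanog array lies below both Sin3a arrays. Most rows in between show no block of colour.

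The most calls came between the 4 arrays with the Nanog transgene (Nanog and Nanog+Sin3a) and the 4 without it (Sin3a and EV), here called the Nanog main effect. It has 4 arrays on each side, against 2 for a pair of groups. The median absolute difference of the 50 genes was 0.08 (log2), against 0.12 for Nanog and 0.10 for Nanog+Sin3a against EV. In the Nanog main effect 14 of the 50 genes passed, a share of 28% against 26.5% of all bright features. Of these, 7 rose (14% against 13.1%) and 7 fell (14% against 13.3%), so the shares lie near those of all bright features. Arrays with and without the transgene did not overlap for 5 genes that were higher (10% against 13.2%) and 6 that were lower (12% against 12%). In the whole table of 7 arrays, without the second Sin3a array, 2 of 57 genes passed, Rplp0 and Rpl14, against 8.02% of all features. The rising genes were Rps25, Rpl3, Rpl37, Rps14, Rpl36al, Rpl41 and Rpl38, and the falling genes were Rps3a1, Rpl29, Rpl39, Rps3, Rps16, Rplp0 and Rpl7a. The sizes were small, from 1.11-fold to 1.49-fold. The median over the 50 genes was -0.02 on the log2 scale, against 0.01 over all bright features. Tests were made in limma with Benjamini-Hochberg adjustment over the 2300 bright features.

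Rps16, a protein of the head of the small subunit, read 6718.8 and 6868.6 with Nanog and 7132.5 and 7450.3 with Nanog+Sin3a, against 8694.6 and 9361.5 with Sin3a and 8371.7 and 8010.6 with EV. All 4 Nanog-carrying arrays lay below all 4 others. The difference was -0.29 on the log2 scale (SE 0.05, adjusted p = 0.000841 in limma). Rps3, which lines the channel where mRNA enters the small subunit, read 7337.5 and 6779.5 with Nanog and 6278.9 and 6529.2 with Nanog+Sin3a, against 7603.0 and 7542.1 with Sin3a and 8557.0 and 9567.8 with EV. The groups did not overlap, and EV was highest. The main effect was -0.30 (SE 0.06, adjusted p = 0.000944 in limma). A separate Rps3 probe gave -0.35 (adjusted p = 0.0033).

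Rps3a1, the mouse gene for another small subunit protein, had the largest difference of the 50, at -0.57 (SE 0.13, adjusted p = 0.003 in limma). Its group means were 8.71 and 8.90 (log2) with Nanog and Nanog+Sin3a, against 9.38 and 9.37 with Sin3a and EV. Rps3a1 thus passed the bright threshold of 9 only through the groups where it was higher, so its call is no independent support for a fall. It read 503.6 and 349.4 with Nanog and 414.0 and 547.7 with Nanog+Sin3a, against 637.0 and 697.4 with Sin3a and 592.2 and 741.1 with EV. The 2 sides did not overlap, although arrays within a group differed widely. Rps3, Rps3a1 and Rps16 were the small subunit genes that fell, out of 19 tested, and Rps25 and Rps14 were those that rose.

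Rpl3 encodes a large subunit protein that reaches toward the peptidyl transferase centre. It read 9237.9 and 9865.1 with Nanog and 11147.1 and 11249.5 with Nanog+Sin3a, against 9193.0 and 9024.1 with Sin3a and 8603.3 and 7868.0 with EV. The arrays did not overlap, and both Nanog+Sin3a arrays were highest. The Nanog main effect was 0.26 (SE 0.05, adjusted p = 0.00174 in limma). Rps14, a protein of the small subunit platform whose partial loss contributes to the anaemia of a chromosome deletion syndrome in people, read 9964.3 and 10042.6 with Nanog and 11205.7 and 10613.0 with Nanog+Sin3a, against 8842.1 and 8798.0 with Sin3a and 9567.8 and 9280.1 with EV. This was a rise of 0.20 (SE 0.05, adjusted p = 0.00813) with no overlap.

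Rps25, which is needed for translation from several viral internal ribosome entry sites, had the largest rise of the 50, at 0.35 (SE 0.11, adjusted p = 0.0208 in limma). It read 2688.5 and 2091.1 with Nanog and 2720.2 and 4129.5 with Nanog+Sin3a, against 2313.4 and 2273.7 with Sin3a and 2223.8 and 2066.2 with EV. One array, the second of Nanog+Sin3a, stood far above the rest, and the second Nanog array lay below both Sin3a arrays. Without that Nanog+Sin3a array the rise was not called (0.20, adjusted p = 0.143). It was also not called without the first or second Sin3a array (0.06 and 0.0769) or the first or second EV array (0.0512 and 0.105).

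**Figure D2:**
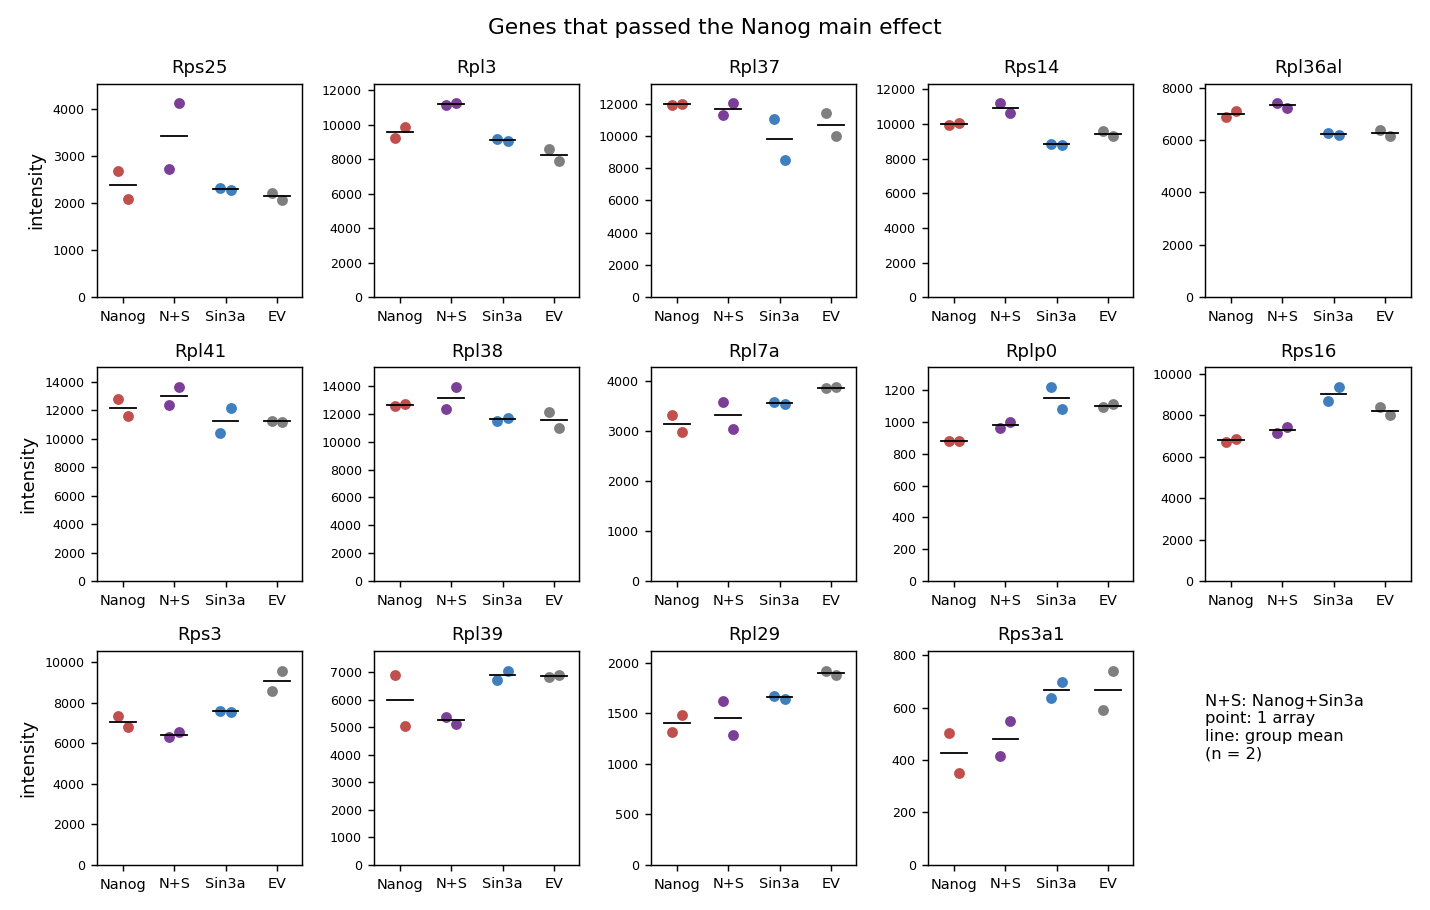
Intensity (linear, axis from 0) of the 14 genes that passed the Nanog main effect, by group, with 1 point per array and a line at the group mean (n = 2). In Rps16, Rps3, Rps3a1, Rpl29, Rplp0, Rpl3, Rps14, Rpl36al and Rpl38 all points of the Nanog and Nanog+Sin3a (N+S) groups lie on 1 side of all Sin3a and EV points, while Rps25 rests on 1 high array.

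Among the remaining large subunit genes, Rpl39, which lines the exit tunnel of the nascent chain, fell by 0.30 on the log2 scale (SE 0.08, adjusted p = 0.00701 in limma). It read 6895.0 and 5054.9 with Nanog and 5377.4 and 5137.3 with Nanog+Sin3a, against 6718.8 and 7057.4 with Sin3a and 6821.6 and 6895.0 with EV. The first Nanog array was as high as the EV arrays, and without the second Nanog array the difference was -0.19 (adjusted p = 0.0328). Rpl29 read 1314.4 and 1482.4 with Nanog and 1619.2 and 1288.0 with Nanog+Sin3a, against 1671.8 and 1644.2 with Sin3a and 1920.2 and 1874.5 with EV. Its difference was -0.32 (SE 0.08, adjusted p = 0.00938) with no overlap, and was not called without the second Nanog+Sin3a array (adjusted p = 0.0545).

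The rest of the large subunit genes called were Rpl7a, Rpl37, Rpl38 and Rpl41. Rpl7a fell by 0.20 (adjusted p = 0.0403), Rpl37 rose by 0.21 (0.0266) and Rpl38, which in mice is needed for translation of a set of Hox mRNAs, rose by 0.16 (0.0372). Rpl41, the shortest ribosomal protein, also rose by 0.16 (0.0429). Each of these 4 calls was lost in at least 3 of the 8 fits that left out 1 array. Rpl7a was not called without the second Nanog array (0.11), the second Nanog+Sin3a array (0.166), the first or second Sin3a array (0.122 and 0.118) or the first or second EV array (0.0767 and 0.104). Rpl37 was lost without the second Nanog+Sin3a (0.0989), Sin3a (0.12 on the log2 scale, 0.197) or EV array (0.162). Rpl38 was lost without the second Nanog (0.0671), Nanog+Sin3a (0.159) or EV array (0.171) and without the first or second Sin3a array (0.097 and 0.0836), and another Rpl38 probe gave 0.02. Rpl41 was lost without the first Nanog (0.103), second Nanog+Sin3a (0.163), first Sin3a (0.11 on the log2 scale, 0.226) and first or second EV array (0.0965 and 0.121).

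The stalk of the large subunit, made of Rplp0 with Rplp1 and Rplp2, recruits the translation factors that use GTP. Rplp0 read 879.3 and 878.4 with Nanog and 961.9 and 1003.0 with Nanog+Sin3a, against 1221.3 and 1080.7 with Sin3a and 1093.4 and 1110.9 with EV. All 4 Nanog-carrying arrays lay below the others, and it fell by 0.28 (SE 0.08, adjusted p = 0.0163 in limma). The call was lost without the first Nanog+Sin3a array (0.0518), the first Sin3a array (0.0842) or the second EV array (0.0663). Rplp2 read 11060.6 and 8694.6 with Nanog and 9280.1 and 7195.9 with Nanog+Sin3a, against 9567.8 and 10875.3 with Sin3a and 9611.2 and 11147.1 with EV. The main effect of Rplp2 was -0.20 and was not called (adjusted p = 0.0787). Rplp1 was at the top of the intensity scale, 14965.3, on 5 of the 8 arrays, and a difference of 0.06 (adjusted p = 0.4) there is bounded by that ceiling. Rpl9 reached it on 1 array.

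Paralogs differ from the standard genes by sequence and, for some, by tissue. Rpl36al, a widely expressed paralog of Rpl36a, read 6868.6 and 7098.8 with Nanog and 7414.7 and 7228.2 with Nanog+Sin3a, against 6257.0 and 6188.4 with Sin3a and 6368.1 and 6165.8 with EV. It rose by 0.20 (SE 0.06, adjusted p = 0.014 in limma) with no overlap between the 2 sides, and was lost without the second Sin3a array (0.0617). Rpl36a itself differed by -0.03 (adjusted p = 0.809, 95% interval -0.21 to 0.14), and its arrays ran from 2992.6 to 4129.5 with the transgene and from 3563.4 to 4225.6 without it. Rps27l, a paralog of Rps27 that is a p53 target, differed by 0.03 (adjusted p = 0.75) and Rpl7l1, a relative of Rpl7 that works in ribosome assembly, by 0.20 (0.0886). Rpl3l, the paralog of Rpl3 found in muscle, and Rpl39l, the paralog of Rpl39 found in testis, were at or below 16 on all 8 arrays.

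Nanog alone was set against EV to ask what that transgene changed by itself. In this comparison 4 of the 50 genes fell, 0 rose and 46 did not pass, and the 8% called stood against 9.65% of all bright features (4.57% higher and 5.09% lower). Rps3a1 fell by 0.66 on the log2 scale (SE 0.18, adjusted p = 0.0272 in limma), Rpl29 by 0.44 (SE 0.12, 0.0256), Rps3 by 0.36 (SE 0.08, 0.0101) and Rps16 by 0.27 (SE 0.08, 0.0353). The Rps3a1 difference was -0.40 without the second Nanog array (adjusted p = 0.298), and its call was also lost without the first or second EV array (0.0653 and 0.339). Each of the other 3 calls was lost without the second EV array as well. Rps16 was the least stable of the 4, passing under 8 of 19 alternatives, against 14 of 19 each for Rps3 and Rpl29. Rps3a1 passed under 12 of 18. The arrays did not overlap in any of these 4, though Rps3a1 averaged 8.71 (log2) with Nanog, under the bright threshold of 9. Over all 50 genes, arrays did not overlap for 9 higher (18% against 27.6% of bright features) and 17 lower (34% against 24.9%). Rpl3 was higher by 0.21 and Rplp0 lower by 0.33, neither called (adjusted p = 0.075 and 0.0747). The median over the 50 was -0.04, against 0.00 over all bright features, with 30 of 50 below 0. Dropping the first Nanog array gave 12 called genes (5 up and 7 down), and dropping the second Nanog array or the first EV array gave 1. Dropping the second EV array gave 0, as did the whole table of 7 arrays, where 2.69% of all features were called.

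Nanog+Sin3a was set against EV to ask what the transgenes changed together. Here 7 of the 50 genes passed, 3 up and 4 down, or 14% against 17% of all bright features (8.09% higher and 8.96% lower). Rpl3 averaged 11198 ± 72.4 with Nanog+Sin3a and 8236 ± 520 with EV (SD, n = 2), a rise of 0.44 (SE 0.07, adjusted p = 0.000472 in limma). Rps25 rose by 0.64 (SE 0.15, adjusted p = 0.00609) and Rps14 by 0.21 (0.0466). Rps3 averaged 6404 ± 177 with Nanog+Sin3a and 9062 ± 715 with EV, a fall of 0.50 (SE 0.08, adjusted p = 0.000364), and its other probe gave -0.64 (0.00058). Rpl39 fell by 0.38 (0.0195), Rpl29 by 0.39 (0.0292) and Rplp2 by 0.34 (0.0489).

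The arrays of Nanog+Sin3a and EV did not overlap in any of these 7 genes. Over all 50 genes they did not overlap for 12 higher (24% against 31.9%) and 14 lower (28% against 29%). Of them, Rpl3 passed under all 19 alternatives run, and Rps3 under 18, the exception being the 8-array whole table (adjusted p = 0.054). The other 5 were less stable, with Rps25 passing under 15, Rpl39 under 11, Rpl29 under 10, and Rps14 and Rplp2 under 7 each. Without the second Nanog+Sin3a array Rps25 was at 0.34 (adjusted p = 0.147), Rpl29 at -0.23 (0.291) and Rplp2 at -0.16 (0.464), and without the first Rplp2 was at -0.52 (0.0185). The count was 2 without the second Nanog+Sin3a or second EV array, 3 without the first EV array, 4 when either Sin3a array was dropped and 2 in the whole table of 7 arrays (7.45% of all features), where the called genes were Rps3 and Rpl3 (adjusted p = 0.0334 and 0.0388). Rps16 differed by -0.17 (adjusted p = 0.143) and Rps3a1 by -0.48 (0.0744) against EV in this group.

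**Figure D3:**
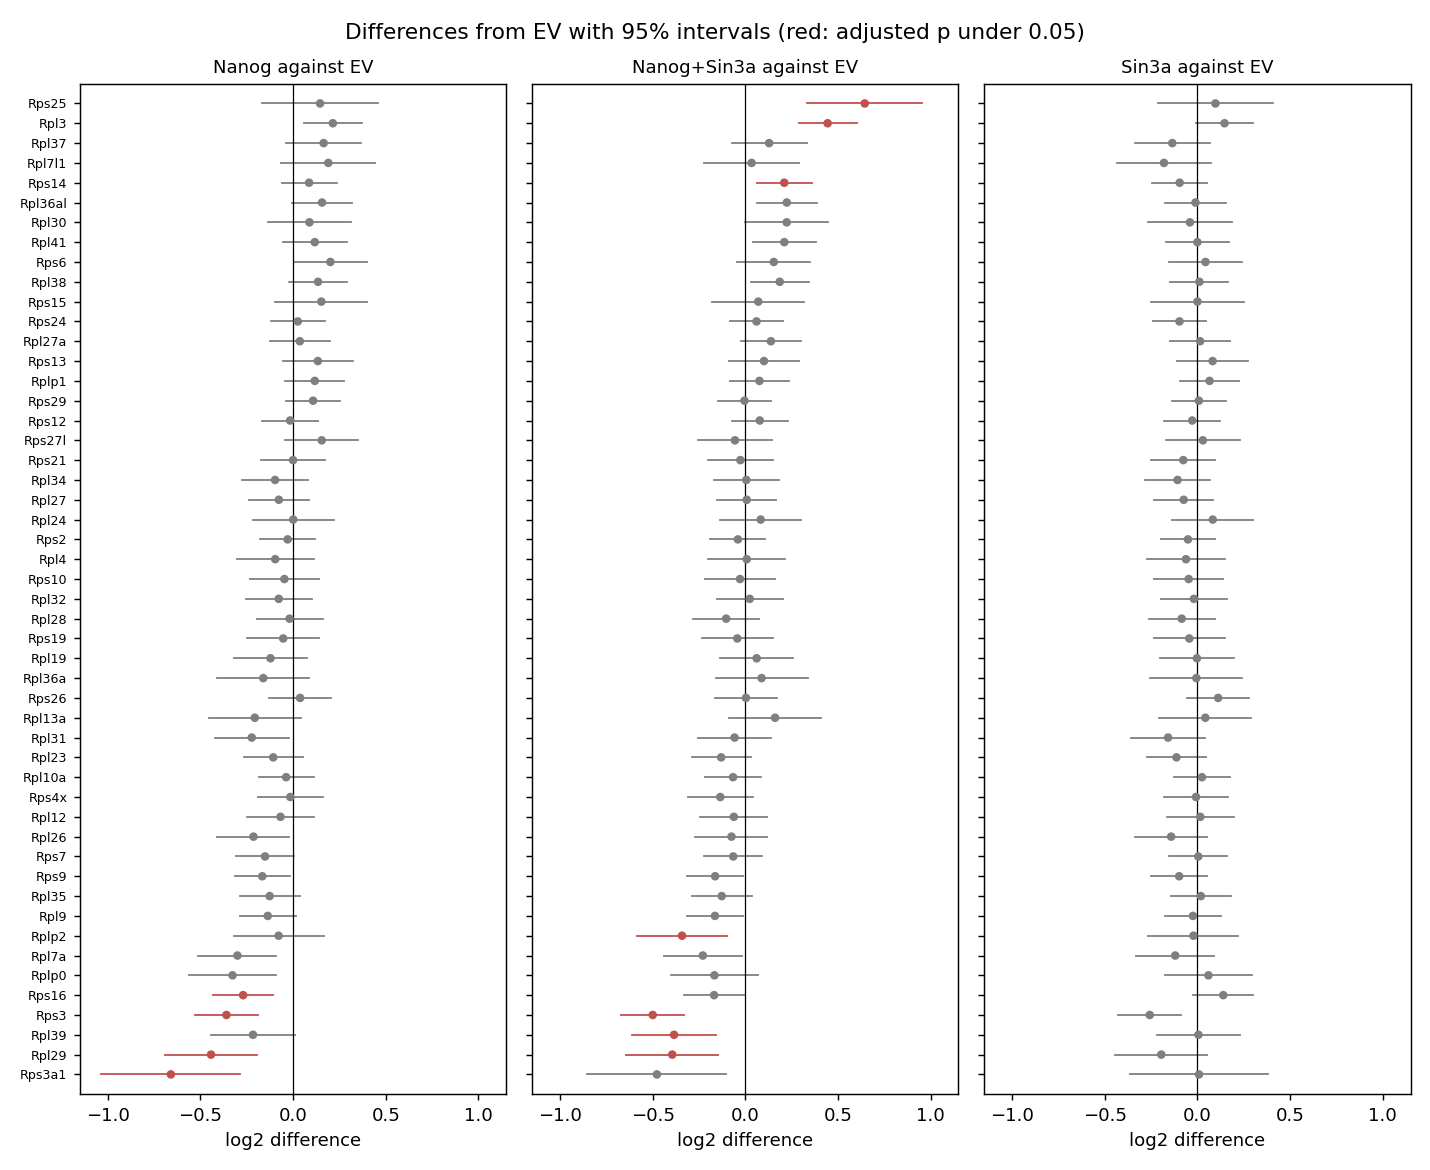
Log2 difference from EV for 50 genes (rows, as in the order of the Nanog main effect, highest at the top) with Nanog, Nanog+Sin3a and Sin3a; bars are 95% intervals of the limma fit and red marks adjusted p under 0.05. There are 4 red genes with Nanog, 7 with Nanog+Sin3a and 0 with Sin3a.

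Sin3a alone was set against EV. None of the 50 genes passed (limma, adjusted p), against 0.174% of all bright features, and 1 had an unadjusted p under 0.05 (2% against 7.83%). That gene was Rps3, at -0.26 (SE 0.08, adjusted p = 0.398), with 7603.0 and 7542.1 on the Sin3a arrays, against 8557.0 and 9567.8 on the EV arrays. The differences of all 50 lay between -0.26 and 0.15 on the log2 scale. Rps16 was at 0.14 and Rpl3 at 0.15, with 95% intervals of -0.02 to 0.30 and -0.01 to 0.30. Sin3a averaged over both backgrounds (4 arrays against 4) also gave 0 called of 50, against 0.348% of all bright features, and 5 genes had an unadjusted p under 0.05 (10% against 11.6%): Rpl3 (0.19), Rps3 (-0.20), Rps25 (0.30), Rpl13a (0.21) and Rps16 (0.12).

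Adding Sin3a on top of Nanog called 0 of the 50 genes, against 0.261% of all bright features, and 6 had an unadjusted p under 0.05 in limma (12% against 10.3%). Rps25 was higher by 0.50 in Nanog+Sin3a (SE 0.15, adjusted p = 0.182), Rpl13a by 0.37 (0.221) and Rpl3 by 0.23 (0.224). Rpl13a, which in human cells also takes part in silencing of inflammatory mRNAs, read 1987.5 and 2130.3 with Nanog+Sin3a, against 1657.5 and 1534.5 with Nanog. The arrays of these 3 genes did not overlap, as was so for 15 of the 50 that were higher (30% against 20.2%). In the other direction 5 of the 50 were lower without overlap (10%), and the matching share of all bright features is not reported here. Dropping the first Nanog array called 2 genes, both up, and dropping the second Nanog or the first Nanog+Sin3a array called 1.

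Adding Nanog on top of Sin3a called 5 of the 50, 3 up and 2 down, or 10% against 11.6% of all bright features (5.61% higher and 5.96% lower). Rps14 rose by 0.31 in Nanog+Sin3a against Sin3a (SE 0.07, adjusted p = 0.00797 in limma), Rpl3 by 0.30 (0.0136) and Rps25 by 0.55 (0.021). Rpl39 fell by 0.39 (0.0221) and Rps16 by 0.31 (0.0136). No arrays overlapped between the groups in these 5, and over all 50 genes that was so for 16 higher (32% against 30.1%) and 13 lower (26% against 29.3%). All 5 calls were lost, leaving 0, when the second Sin3a array was dropped, and 0 passed in the whole table of 7 arrays (1.94% of all features). Rps25 was at 0.25 (adjusted p = 0.32) without the second Nanog+Sin3a array and at 0.85 (0.00277) without the first. The count was 11 when either Nanog array was dropped, 2 for either Nanog+Sin3a array and 3 for the first Sin3a array. The interaction, which asks whether the Sin3a effect differed with Nanog, called 0 of 50 (0.0435% of all bright features). At an unadjusted p under 0.05 were 3 genes (6% against 6.52%): Rpl31 (0.32), Rpl26 (0.28) and Rps14 (0.22). The median interaction over the 50 was 0.08, against -0.0002 over all bright features. Of the 50, 34 were above 0 and 16 below, where 50% of all bright features were above 0, and the difference was not tested.

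**Figure D4:**
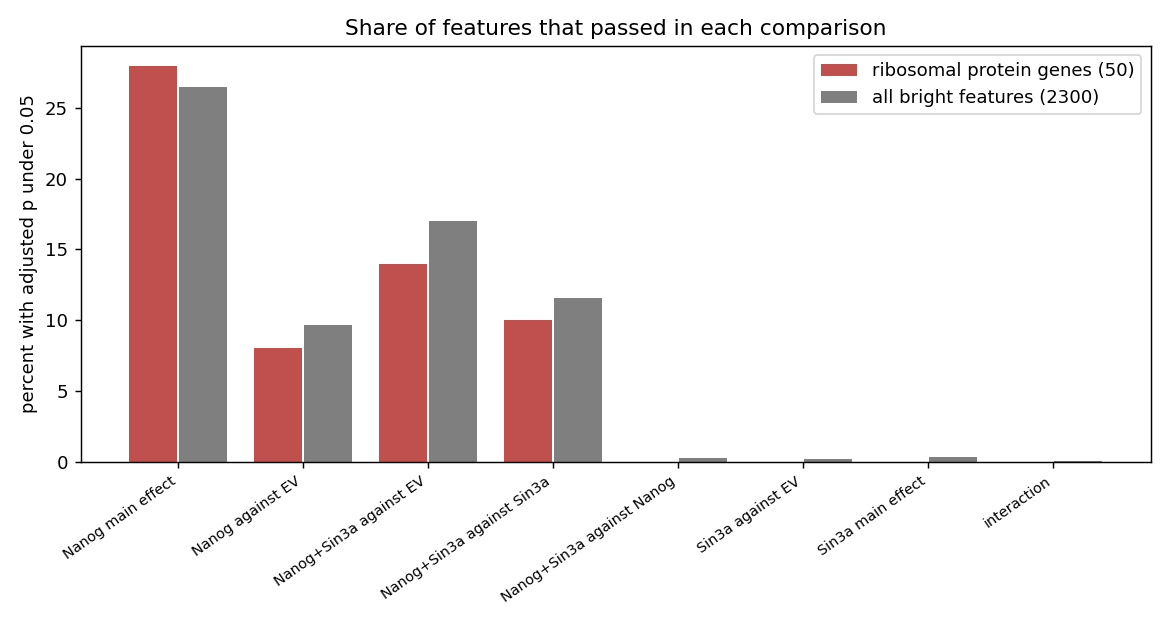
Percent of the 50 ribosomal protein genes (red) and of all 2300 bright features (grey) with adjusted p under 0.05 in 8 comparisons. The red and grey bars are of like height for the Nanog main effect (28 and 26.5) and are at or near 0 in the 4 comparisons that ask about Sin3a or the interaction.

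The 5 genes with the widest range of group means were Rps3a1 (0.67), Rps25 (0.64), Rps3 (0.50), Rpl3 (0.44) and Rpl29 (0.44), in log2 units. Rps3a1 was in the bright set only through the groups without the Nanog transgene. The 5 narrowest were Rps10 (0.05), Rps2 (0.05), Rps19 (0.05), Rps21 (0.08) and Rpl24 (0.08). Rps19, a small subunit protein mutated in Diamond-Blackfan anaemia in people, read 10116.3 and 12036.0 with Nanog, 10424.5 and 11852.4 with Nanog+Sin3a, 11110.9 on both Sin3a arrays, and 10517.1 and 12465.0 with EV. Within Nanog, Nanog+Sin3a and EV its arrays differed by more than the group means did, and the Sin3a arrays were equal. Rps2, which sits where mRNA enters the small subunit, read 13939.9 on 4 arrays of 4 different groups, as deposited values come from a shared set and repeat where ranks match.

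Among the 38 members with a mean log2 intensity above 12, 9 were called in the Nanog main effect (23.7%), against 54 of 222 other features in that range (24.3%). This range was chosen after the values were seen. For 9 of the bright genes another bright probe existed, 12 probes in all. In the Nanog main effect 5 of these 12 had the direction of the brightest probe, and 10 had the same call. Rps24, which makes isoforms with different last exons, was named after its values were seen. Its brightest probe differed by 0.06 in Nanog+Sin3a against EV (adjusted p = 0.574), while another probe read 707.6 and 705.0 with Nanog+Sin3a, against 1003.7 and 987.6 with EV (-0.50, adjusted p = 0.00817 in limma over all bright probes). Ribosomal protein genes have many processed pseudogenes, and whether a probe also reads these was not tested.

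The other 15 of the 65 genes were not bright and were left out of the main test. The probes of Rpsa, Rps20, Rpl3l, Rpl39l and Rps23rg1 were at or below 16 on all 8 arrays, which for Rps20 and Rpsa, proteins of every ribosome, describes the probe. Rpl22 read 405.8 and 354.7 with Nanog, 481.6 and 528.5 with Nanog+Sin3a, 359.6 and 141.9 with Sin3a, and 374.1 and 343.6 with EV. Its rise in Nanog+Sin3a against EV in the whole table of 7 arrays was 0.49 (SE 0.11, adjusted p = 0.0514 in limma), so it did not pass. Its paralog Rpl22l1 read 63.9 and 51.9 with Nanog+Sin3a, against 85.5 and 141.8 with EV (-0.94, SE 0.31, adjusted p = 0.119). Rpl14 read 7.1, 27.1, 20.3 and -0.3 on the arrays with Nanog, against 41.2, 1.1, 37.5 and 35.1 on those without, the 1.1 being the second Sin3a array. In 7 arrays it differed by -1.0 (SE 0.23, adjusted p = 0.0491), close to the floor of 16.

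Translation factors and other genes with TOP mRNAs were taken from a list of 38, of which 26 were bright. In the Nanog main effect 3 rose (11.5% against 13.1% of all bright features), 6 fell (23.1% against 13.3%) and 17 did not pass, with a median of -0.07 on the log2 scale, against 0.01 over all bright features. Pabpc1, the poly(A)-binding protein, fell by 0.38 (SE 0.10, adjusted p = 0.0107 in limma), Eif3k, a subunit of the scaffold eIF3, by 0.31 (0.0116) and Eef1b2, which recharges elongation factor 1A with GTP, by 0.28 (0.00861). Eif5a, the hypusinated elongation factor, rose by 0.31 (0.0107) and Eif3b, another eIF3 subunit, by 0.30 (0.0447). Eef1b2 read 3215.8 and 2999.7 with Nanog and 2659.7 and 2987 with Nanog+Sin3a, against 3035.3 and 3531 with Sin3a and 3926.3 and 3958.1 with EV. Both EV arrays were highest. With Nanog against EV, 3 fell (11.5% against 5.09% of all bright features lower) and 0 rose (0% against 4.57% higher). The largest fall was that of Eif2s3x (-0.48, adjusted p = 0.0127). With Nanog+Sin3a against EV, 3 fell (11.5% against 8.96% lower) and 1 rose (3.85% against 8.09% higher), and Eif4h was at 0.31 (0.0291). In Nanog+Sin3a against Sin3a 1 fell (3.85% against 5.96% lower, 11.6% in either direction), Eif3f (-0.37, 0.0112). None passed for Sin3a against EV or Nanog+Sin3a against Nanog, where the smallest p belonged to Eif2s3x (-0.32) and Eif3l (-0.23).

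Of 40 ribosome biogenesis genes 24 were bright. In the Nanog main effect 0 rose, 6 fell and 18 did not pass, and the median was -0.06. The 25% called, all lower, stood against 13.3% of all bright features called lower, and the 0% higher against 13.1%. In either direction 26.5% of all bright features were called. Whether the list differs from all bright features was not tested. Pa2g4, which binds ribosome precursors in the nucleolus, fell by 0.54 (SE 0.08, adjusted p = 5.93e-05 in limma), Bop1, which processes large subunit RNA, by 0.42 (0.00764), Rrp12 by 0.40 (0.00394) and Nol6 by 0.33 (0.0253). In Nanog+Sin3a against EV 5 fell (20.8% against 8.96% of all bright features lower) and 0 rose (0% against 8.09% higher). Pa2g4 was at -0.74 (0.000177). In Nanog against EV 1 fell (4.17% against 5.09% lower, 9.65% in either direction), Pa2g4 at -0.49 (0.00976). In Nanog+Sin3a against Sin3a 3 fell (12.5% against 5.96% lower, 11.6% in either direction), namely Pa2g4, Rrp12 and Bop1. None passed for Sin3a against EV (Polr1c at -0.38, Ebna1bp2 at -0.29) or Nanog+Sin3a against Nanog (Pa2g4 at -0.24, Polr1d at -0.20). Of the 19 genes of the mTOR, Myc and p53 branch 2 were bright. Eif4ebp1, the inhibitor of the cap-binding factor, fell in the Nanog main effect by 0.52 (SE 0.10, adjusted p = 0.000983), and Rheb, the activator of mTOR, did not pass.

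**Figure D5:**
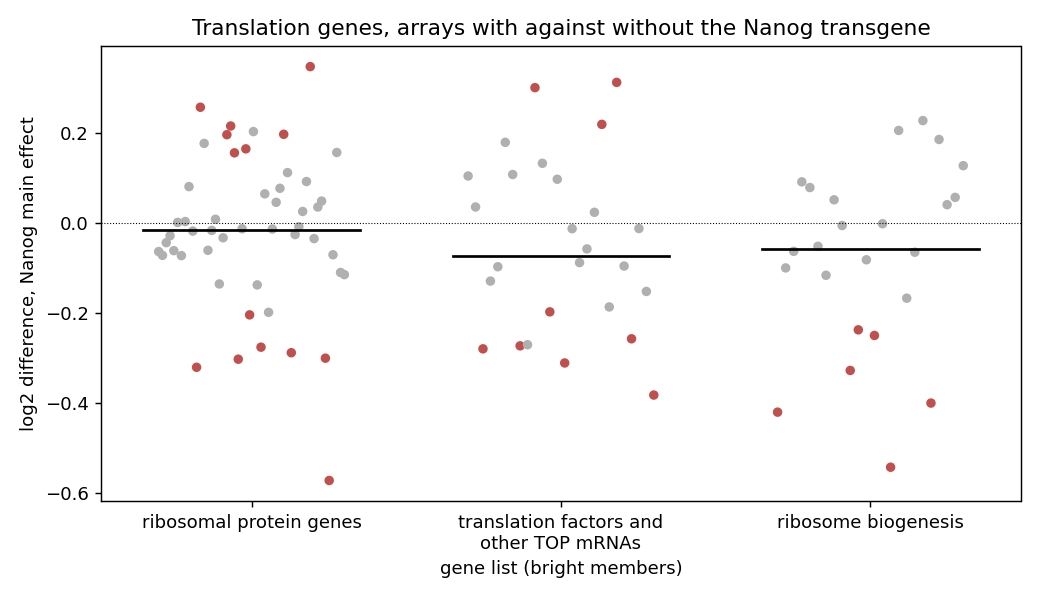
Log2 difference in the Nanog main effect (arrays with the transgene minus arrays without) for bright genes of 3 lists, with red points for adjusted p under 0.05 and a black line at each list's median. The ribosomal protein genes have 7 red points above 0 and 7 below. The ribosome biogenesis genes have 6 of 24 below 0, a share of 25% against 13.3% of all bright features called lower. They have 0 red points above 0, against 13.1% of all bright features called higher.

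In the promoter windows, CCGGAAG was present for 4 of 5 rising genes with a window (Rpl37, Rpl38, Rpl41 and Rps25, but not Rpl36al) and for 2 of 6 falling ones (Rpl39 and Rps3a1, but not Rps16, Rps3, Rplp0 and Rpl7a), against 13 of 32 bright genes that did not pass. The pyrimidine run was present in 5 of 5, 2 of 6 and 20 of 32 windows. These are counts over a few genes with no test, and a match is a description of the letters.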

How the data were processed

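The authors deposited intensity values per probe, processed with GenomeStudio per the submitters' processing notes (version and settings not given in the sources used here). The deposited intensity of the 45281 probes lay between -24 and 14965.3 and was not logged. Since 47.3% to 47.7% of it was negative, a background had been subtracted. Once sorted, values above 16 of 7 arrays matched within 0.621% and the second Sin3a array within 4.05%, so quantile normalisation was taken as done. The number of arrays limits the precision.

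Values under 16, the floor, were raised to it and converted to log2. A single gene symbol was available for 34885 probes, more than 1 for 18, and 10378 were unnamed. The test of the 2300 bright features used limma 3.58.1 under R 4.3.3 (lmFit, eBayes with an intensity trend, 1 coefficient per group, 4 residual degrees of freedom), two-sided, adjusted by Benjamini-Hochberg at 0.05. In simulated data 94 of 100 changes of 1 and 48 of 100 of 0.4 (log2) were recovered for Nanog against EV over 2300 features, with 6 false calls.

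Named genes were the members called with arrays that did not overlap, up to 10 in each direction, with the stalk, the paralogs, the 5 widest and narrowest genes, and up to 4 called genes per other list. Further called genes were named for completeness. Members, lists and the choice of bright features were fixed with earlier results of these data known. Alternatives are in the closing section.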

Additional observations from a re-analysis of the deposited data

Results flagged for a closer look

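Probes outside the main test that were below 16 on both EV arrays but above it elsewhere were looked at again. Rps4l read 108.9 on the second Sin3a array and between -13.5 and -2.6 on the other 7, and that array is the one that stood apart at low intensity. Rpl17 read 20.8 on the second Nanog+Sin3a array and between -15.6 and 10.2 on the other 7.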

How the results depend on the processing

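Counts of called ribosomal protein genes were recomputed under each alternative, and those for Nanog against EV, Nanog+Sin3a against EV, Nanog+Sin3a against Sin3a and the Nanog main effect were 4, 7, 5 and 14 as reported. In that order they were 0, 1, 0 and 5 with all features above the floor in 8 arrays, 0, 2, 0 and 2 with all features in 7 arrays, 1, 3, 3 and 9 with a bright threshold of 8, and 2, 4, 0 and 7 with no intensity trend. Over all features called, the whole table gave 0 and 347 (8 and 7 arrays) of 13687 and 12886 for Nanog against EV, against 222 of the bright ones. Without the Sin3a group Nanog+Sin3a against EV gave 4. Leaving out 1 array at a time gave 0 to 12, 2 to 10, 0 to 11 and 8 to 18 for these comparisons, 0 to 2 for Nanog+Sin3a against Nanog, 0 to 1 for the Sin3a main effect, and 0 for Sin3a against EV and the interaction. A bright threshold of 10, log2(value + 50), a second quantile normalisation, median centring and the mean of a gene's bright probes kept each of the 8 counts within 1.5 times. No result of a called gene changed sign under any alternative. In the Nanog main effect Rps16, Rps3, Rpl3, Rpl39, Rps14 and Rps3a1 passed in all 8 fits that left out 1 array. With the replicate number as a block, the counts were 4, 6, 5 and 14, and it changed the call of Rps14 in Nanog+Sin3a against EV (adjusted p = 0.0586) and no other. Same-numbered arrays of different groups correlated at -0.17 to 0.06 in their deviations, and the labels give the numbers no further meaning. Bright probes and 2 arrays per group set the limit. In the simulation of Nanog against EV 48 of 100 changes of 0.4 (log2) were recovered, and smaller changes were not simulated.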
